A study of Mus musculus with 10 samples.

Results

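The 10 genes described here encode methyltransferases of the COMPASS family with its scaffold subunit (Kmt2a, Kmt2b, Kmt2c, Kmt2d, Setd1a, Setd1b and Wdr5) and methyltransferases of histone H3 lysine 36 (Nsd1, Setd2 and Ash1l). They were taken as the rows of the deposited count table whose gene name equals a listed symbol, 10 of the 35976 rows of that table, and all 10 were found and passed the filter on low counts. COMPASS complexes place methyl groups on lysine 4 of histone H3. KMT2A and KMT2B serve developmental promoters, KMT2C and KMT2D place monomethylation at enhancers, and SETD1A and SETD1B provide most of the trimethylation at active promoters. NSD1 places dimethylation of H3K36, SETD2 places its trimethylation along transcribed genes, ASH1L is a Trithorax-group enzyme that also acts on H3K36, and H3K36 methylation hinders the deposition of H3K27 methylation by the Polycomb complex PRC2, of which JARID2 is a cofactor.

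Polyadenylated RNA was sequenced from mouse morulae, the preimplantation stage at which the blastomeres compact, all of the strain combination BDF1 x PWK. The libraries were of 3 single female Jarid2 knockout embryos (replicates 1, 3 and 4), set against 3 single female wild-type embryos (replicates 1 to 3), and of 2 pools of about 20 Jarid2 knockout embryos, set against 2 control pools of the same size. The labels call the second set of controls only control, and they leave out the sex of the pooled embryos, the deleted exons and any maternal part of the knockout. No knockout single embryo numbered replicate 2 was among the libraries analysed here. The series compares knockout with control morulae.

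Jarid2 itself had 156, 319 and 61.3 CPM (counts scaled to a library total of 1000000) in knockout single embryos 1, 3 and 4, against 580.3, 686 and 776 CPM in wild-type single embryos 1 to 3. Knockout pools 1 and 2 had 181 and 158 CPM, against 442.5 and 496 CPM in control pools 1 and 2. All knockout libraries lay below all of their controls, and reads remained in each; the values are counts over the whole gene, so they check the labels only in part where the deleted exons are not known. In single embryos the log2 change was -1.92 (SE 0.43, adjusted p = 0.0342 by edgeR), a call that was lost without knockout embryo 1 or 4 or wild-type embryo 1 or 3 (adjusted p of 0.0735 to 0.127) and with TMM scaling over genes with transcripts of at least 5000 bases (0.0569). Total counts were 14830332 to 18696312 in single embryos and 41003216 to 49861963 in pools. Of 8 morula marker genes, among them Pou5f1, Nanog and Cdx2, all were detected in every group, with summed levels of 1320 to 1640 CPM in knockout single embryos, 1130 to 1400 CPM in wild-type ones, 978 to 1240 CPM in knockout and 1060 to 1200 CPM in control pools. Of 10 cumulus and granulosa markers, 8 were at 0 in the single embryos, Fshr and Has2 among them, and the summed levels were 3.1 to 5.4 CPM in knockout and 5 to 9.71 CPM in wild-type embryos. Oocyte markers summed to 37.5 to 103 CPM in knockout and 48.1 to 163 CPM in wild-type embryos, mostly Zp3, fibroblast markers to 8.66 to 55.9 and 12.2 to 141 CPM, mostly Pdgfra, and blood markers to at most 1.02 and 1.65 CPM, with Hbb-bs and Ptprc at 0. Wild-type single embryos differed from all other libraries in the share of counts from genes with transcripts of at least 5000 bases, which was 11.1%, 13.8% and 10.9% in knockout single embryos 1, 3 and 4, 16.95%, 14.9% and 15.1% in the wild-type embryos, 11.1% and 12.7% in knockout pools, and 10.7% and 11.6% in control pools. The 9 methyltransferase genes have longest annotated transcripts of 6487 to 19823 bases, and Wdr5 has one of 2890 bases, so this share moved with the values below, and fits that correct for length are given beside them.

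The genes differ widely in their promoters, and these are shown because the CXXC domains of KMT2A and KMT2B bind unmethylated CpG. In the RefSeq promoter table for GRCm38.p6 (mm10), 6 of the 10 genes had an entry (Kmt2a, Kmt2c, Kmt2d, Setd1a, Setd2 and Wdr5). The table gives 1 start for each gene, and the 250 bases before that start held 48 CpG in Kmt2c, a number reached by 0.186% of the 32851 promoters in the table, against 31 in Setd2, 29 in Kmt2a, 26 in Kmt2d, 25 in Setd1a and 12 in Wdr5, and against a median of 6 over all promoters. That start lies within the gene as annotated for some of them, so that 63 of the 250 bases in Kmt2a, 72 in Kmt2c, 97 in Setd2 and all 250 in Kmt2d are inside the annotated gene, and 0 in Setd1a and Wdr5. The GC box, searched as GGGCGG and its reverse complement CCGCCC, occurred 12 times in that stretch of Kmt2c, 7 times in Setd2 and 4 times each in Kmt2a and Kmt2d. It occurred 1 time in Wdr5 and 0 times in Setd1a, and 32.7% of all promoters held at least 1. Below, 3 promoters are given 5′ to 3′ on the strand of the gene, cut to the bases outside the annotated gene, with each CpG in capitals. They are those of Kmt2c and Kmt2a, the genes with the smallest p and the largest difference in single embryos, and of Wdr5, the short gene that did not share their direction. The stretches lie at chr5:25498856-25499033 (minus strand) for Kmt2c, at chr9:44881353-44881539 (minus strand) for Kmt2a and at chr2:27514897-27515146 (plus strand) for Wdr5.
Kmt2c: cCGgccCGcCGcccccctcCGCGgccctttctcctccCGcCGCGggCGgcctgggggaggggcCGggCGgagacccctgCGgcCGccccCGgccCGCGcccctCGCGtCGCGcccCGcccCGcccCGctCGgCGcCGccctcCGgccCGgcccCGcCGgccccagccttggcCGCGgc
Kmt2a: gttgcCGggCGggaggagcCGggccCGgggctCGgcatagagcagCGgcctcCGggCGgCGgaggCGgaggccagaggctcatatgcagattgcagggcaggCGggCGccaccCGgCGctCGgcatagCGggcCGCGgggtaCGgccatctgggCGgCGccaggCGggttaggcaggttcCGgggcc
Wdr5: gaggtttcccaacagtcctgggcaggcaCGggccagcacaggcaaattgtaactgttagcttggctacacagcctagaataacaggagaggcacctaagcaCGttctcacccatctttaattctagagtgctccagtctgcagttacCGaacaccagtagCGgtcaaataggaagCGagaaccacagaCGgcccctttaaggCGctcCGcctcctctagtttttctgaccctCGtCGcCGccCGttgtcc
The Kmt2c stretch is a near-continuous run of C and G, with 32 CpG in its 178 bases, whereas that of Wdr5 holds 12 CpG in 250 bases, most of them close to the start. These counts describe letters in a window, and neither methylation nor binding was measured in this series.

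In single embryos, the 9 methyltransferase genes were all lower on average in knockout than in wild-type libraries and Wdr5 was not, but Kmt2c alone passed the test across all genes. Kmt2c fell 2.21-fold. The log2 changes of the 10 genes ran from -2.13 in Kmt2a to 0.19 in Wdr5, with a median of -0.93 beside -0.04 over all 13830 genes tested. By edgeR's quasi-likelihood F test, with p-values adjusted over all genes by Benjamini-Hochberg and a threshold of 5%, 1 of the 10 genes was called, and 4.37% of all genes tested were (3.21% lower in knockout, 1.16% higher). At an unadjusted p under 0.05, 9 of the 10 were lower in knockout, where 12.2% of all genes were. In 7 of the 10 genes every knockout embryo lay below every wild-type embryo, which held for 15.3% of all genes. The direction itself, a log2 change below 0, was shared by 51.7% of all genes. Among tested genes with a transcript of at least 5000 bases, as the 9 methyltransferase genes have, 75% shared it and 4.9% were called lower. At 12000 bases and above, where Kmt2c lies, 9.02% were called lower.

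**Figure D1:**
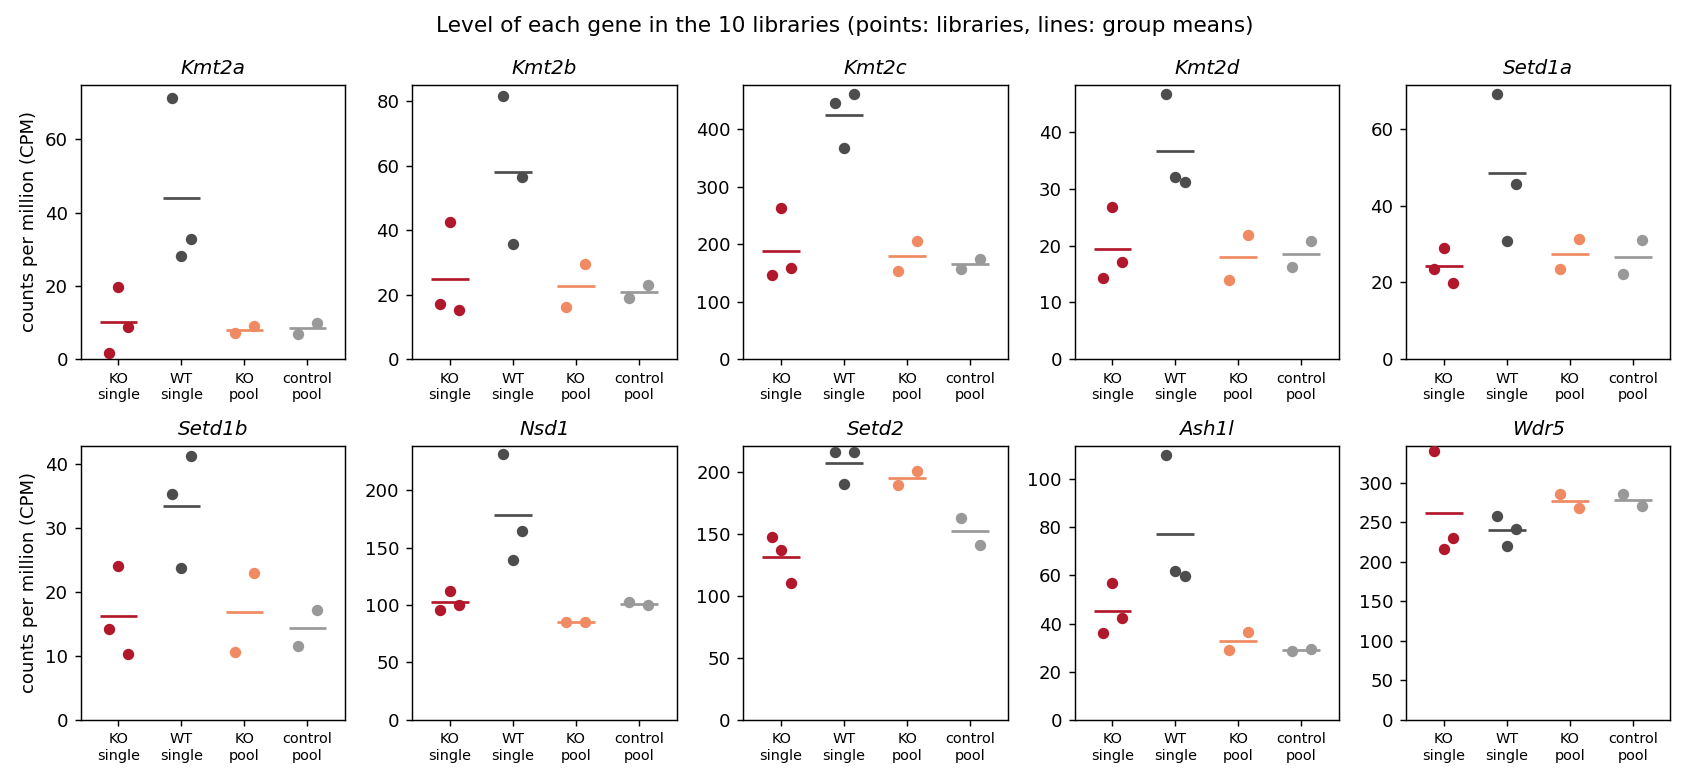
Level of each of the 10 genes in CPM (vertical axes, each from 0) in the libraries of the 4 groups, where points are libraries and lines are group means. Kmt2c lay between 146 and 263 CPM in knockout single embryos and between 368 and 461 CPM in wild-type single embryos, and the pools lay near the knockout single embryos in most panels.

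Kmt2c, which encodes the enhancer monomethyltransferase also called MLL3 (chr5:25271795-25498855), had 146, 263 and 158 CPM in knockout single embryos 1, 3 and 4, against 445, 368 and 461 CPM in wild-type single embryos 1 to 3. Knockout embryo 3 was the highest of its group and still lay below the lowest wild-type embryo. The log2 change was -1.15 (SE 0.22), with an adjusted p of 0.023 by edgeR's quasi-likelihood test and 0.0104 by limma-voom. The call rested on single libraries, since without knockout embryo 1 or 4, or wild-type embryo 1 or 3, the adjusted p by edgeR was 0.0916 to 0.104. It was also lost, with an adjusted p of 0.126 and a log2 change of -0.53, when each library was corrected for transcript length and GC content.

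Kmt2d (MLL4, chr15:98831669-98874077), the paralog of Kmt2c at enhancers, had 14.3, 26.7 and 17.2 CPM in knockout single embryos 1, 3 and 4, against 46.7, 32.1 and 31.2 CPM in wild-type single embryos 1 to 3. The groups did not overlap, and the gap between knockout embryo 3 and wild-type embryo 3 was small beside the spread within either group. Its log2 change of -0.89 (SE 0.32) did not pass the test (adjusted p = 0.129 by edgeR), and with the length and GC correction it was -0.02.

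Kmt2a (MLL1, chr9:44803355-44881352) showed the largest difference of the 10 genes and the widest spread. It had 1.61, 19.8 and 8.85 CPM in knockout single embryos 1, 3 and 4, against 71.3, 28.1 and 32.7 CPM in wild-type single embryos 1 to 3. Knockout embryo 1 held 29 counts of the gene, and wild-type embryo 1 was more than 2 times as high as either of the other wild-type embryos. The groups did not overlap, and the log2 change was -2.13 (SE 0.67) with an adjusted p of 0.0913 by edgeR, so the gene missed the threshold there and passed it by limma-voom (adjusted p = 0.0485). With the length and GC correction the log2 change was -1.52.

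Kmt2b (MLL2, chr7:30568855-30589056), the closest relative of Kmt2a and a maker of trimethylation at bivalent promoters, had 17, 42.4 and 15.2 CPM in knockout single embryos 1, 3 and 4. The wild-type single embryos 1 to 3 had 81.7, 35.6 and 56.5 CPM. Knockout embryo 3 lay above wild-type embryo 2, so the groups overlapped, and the log2 change of -1.21 (SE 0.42) did not pass the test (adjusted p = 0.114 by edgeR).

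Setd1a (chr7:127777389-127800122), an enzyme of promoter trimethylation needed in early mouse development, had 23.6, 29.1 and 19.9 CPM in knockout single embryos 1, 3 and 4, against 69.1, 30.8 and 45.8 CPM in wild-type single embryos 1 to 3. Its groups came within 2 CPM of each other without overlapping. Setd1b (chr5:123142040-123168630), its paralog, had 14.2, 24 and 10.2 CPM in knockout single embryos 1, 3 and 4, against 35.2, 23.7 and 41.2 CPM in wild-type single embryos 1 to 3. Here knockout embryo 3 lay above wild-type embryo 2. The log2 changes were -0.97 (SE 0.33) for Setd1a and -1.03 (SE 0.37) for Setd1b, and neither passed the test (adjusted p = 0.115 and 0.132 by edgeR).

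Wdr5, the WD-repeat scaffold shared by all COMPASS complexes and by other chromatin complexes (chr2:27515147-27536535), had 341, 216 and 229.5 CPM in knockout single embryos 1, 3 and 4, against 257, 219 and 242 CPM in wild-type single embryos 1 to 3. The wild-type values lay inside the range of the knockout values. Its log2 change of 0.19 (SE 0.23) did not pass the test (adjusted p = 0.686 by edgeR), and its direction rested on knockout embryo 1, without which it was -0.1.

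The 3 H3K36 methyltransferase genes had smaller differences than most of the COMPASS genes, and none passed the test. Nsd1 (chr13:55209782-55318325), the dimethyltransferase, had 95.5, 112 and 100.4 CPM in knockout single embryos 1, 3 and 4, against 232, 139 and 164 CPM in wild-type single embryos 1 to 3. The knockout values lay close together and below all wild-type values, and the log2 change was -0.75 (SE 0.23, adjusted p = 0.0809 by edgeR). Setd2 (chr9:110532500-110618633), the sole known enzyme for most H3K36 trimethylation, had 148, 137 and 111 CPM in knockout single embryos 1, 3 and 4, against 216, 190.3 and 216 CPM in wild-type single embryos 1 to 3. Its groups were also apart, with a log2 change of -0.61 (SE 0.2, adjusted p = 0.107 by edgeR). Ash1l (chr3:88950414-89079375) had 36.1, 56.9 and 42.1 CPM in knockout single embryos 1, 3 and 4, against 109.8, 61.9 and 59.8 CPM in wild-type single embryos 1 to 3. Wild-type embryo 1 was far above the other two, the gap between the groups was narrow, and the log2 change was -0.74 (SE 0.29, adjusted p = 0.161 by edgeR). The annotated Ash1l gene shares 560 bases with Dap3 on the opposite strand, and the labels do not say whether the counting used strand. The log2 change of Dap3 was 0.19 and did not pass the test. Other members overlap annotated genes that have no row of counts. Setd1b shares 26437 bases with Gm26745 on the opposite strand, and Setd1a shares 14515 with Gm49388 on the same strand. Kmt2a shares 2739 bases with Gm48314 on the same strand and 3406 with AC061963.1 on the opposite one. Kmt2c, Setd2 and Nsd1 also have such overlaps. What reads from these genes added to the members was not tested.

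**Figure D2:**
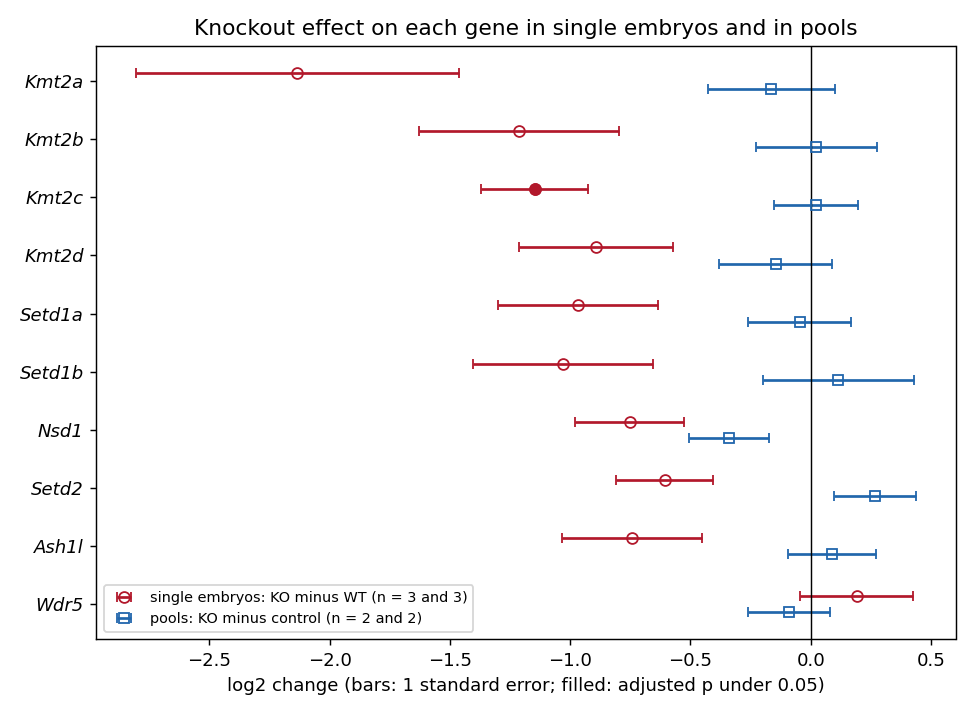
Log2 change of each gene (horizontal axis, with bars of 1 standard error) in single embryos (circles, knockout minus wild type, n = 3 and 3) and in pools (squares, knockout minus control, n = 2 and 2), with a filled symbol where the adjusted p is under 0.05. The circle of Kmt2c at -1.15 is the one filled symbol, and all squares lie between -0.34 and 0.27.

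The number of calls among the 10 genes depended on the tool. DESeq2 called 5 of them lower in knockout single embryos (Kmt2a, Kmt2b, Kmt2c, Setd1a and Nsd1), where it called 7.28% of all genes lower. Limma-voom called Kmt2a and Kmt2c lower, and 3.93% of all genes lower. With a filter of at least 10 CPM on average edgeR called 3 of the 10 (Kmt2a, Kmt2c and Nsd1), all lower, and it called 9.8% of the 8146 genes then tested lower.

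In pools of about 20 embryos the 10 genes were on average near the controls. EdgeR's quasi-likelihood test called none of them at 5%, none had an unadjusted p under 0.05, and neither DESeq2 nor limma-voom called any. The share of all 16259 genes tested that edgeR called was 0.0%, with 6.6% at an unadjusted p under 0.05, and DESeq2 and limma-voom called 0.431% and 0.00615% of all genes. The median log2 change was -0.01 over the 10 genes and 0.01 over all genes, and 5 of the 10 were below 0, as were 48.7% of all genes. In the same pools Jarid2 had a log2 change of -1.55 (SE 0.18) and an adjusted p of 0.0794 by edgeR, so it was not called there, while limma-voom (0.0303) and DESeq2 (5.83e-11) called it. By edgeR it was also called with no filter on low counts (5.9e-12) and with the replicate block (0.00322). In 8 of the 16 alternatives it was not called either. With any 1 pool left out its log2 change was -1.73 to -1.4.

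Kmt2c had 154 and 206 CPM in knockout pools 1 and 2, against 157 and 175 CPM in control pools 1 and 2. The knockout pools lay on both sides of the controls, and the log2 change was 0.02 (SE 0.17, adjusted p = 0.994 by edgeR). Kmt2a had 7.02 and 9.07 CPM in knockout pools, against 6.97 and 9.95 CPM in control pools, with the knockout values inside the range of the controls and a log2 change of -0.16 (SE 0.26). Kmt2b (0.02, SE 0.25), Kmt2d (-0.14, SE 0.24), Setd1a (-0.05, SE 0.21), Setd1b (0.11, SE 0.31), Ash1l (0.09, SE 0.18) and Wdr5 (-0.09, SE 0.17) likewise had log2 changes within about 1 standard error of 0. For Kmt2b, Kmt2c, Setd1a, Setd1b, Ash1l, Kmt2a, Kmt2d and Wdr5 the sign in pools turned with the scaling or with single pools left out.

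Nsd1 and Setd2 were the 2 of the 10 genes whose pools did not overlap, in opposite directions. Nsd1 had 84.9 and 85.1 CPM in knockout pools 1 and 2, against 102.7 and 99.8 CPM in control pools 1 and 2, and 11.1% of all genes had both knockout pools below both controls. Setd2 had 189.8 and 201 CPM in knockout pools, against 163 and 141 CPM in control pools, and 24.3% of all genes had both knockout pools above both controls. The log2 changes were -0.34 (SE 0.16, unadjusted p = 0.0653, adjusted p = 0.777 by edgeR) for Nsd1 and 0.27 (SE 0.17, adjusted p = 0.845 by edgeR) for Setd2.

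Whether the knockout effect differed between single embryos and pools was tested as the difference of the 2 effects over all 10 libraries, and edgeR called none of the 10 genes, with 0.0063% of all 15878 genes called. Of the 10, Kmt2c and Setd2 had an unadjusted p under 0.05, as 14.6% of all genes did, while DESeq2 called 1 of the 10, Kmt2c (adjusted p = 0.0372, with 2.75% of all genes called), and limma-voom none (0.0063%). The difference, single embryos minus pools on the log2 scale, was -1.15 for Kmt2c (SE 0.33, unadjusted p = 0.00385, adjusted p = 0.235 by edgeR) and -0.86 for Setd2 (SE 0.28, unadjusted p = 0.00839, adjusted p = 0.235). It was -1.94 for Kmt2a, the largest of the 10. In 9 of the 10 it was below 0, as in 52.1% of all genes and 74.9% of those with transcripts of at least 5000 bases. The effect averaged over both sets called none of the 10 genes by edgeR either (0.252% of all genes were called), with 4 (Kmt2a, Kmt2c, Kmt2d and Nsd1) at an unadjusted p under 0.05 (11.4% of all genes) and none by DESeq2 (3.05%) or limma-voom (0.888%). Nsd1, the one of the 10 that lay below its controls without overlap in both sets, averaged -0.53 on the log2 scale with an adjusted p of 0.187 by edgeR. The sets differ in the number of embryos per library, in depth and in the controls, labelled wild type in single embryos and only control in pools. The sex is given for the single embryos alone. These cannot be told apart as sources of a difference between the sets.

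The 2 sets also differed in level, and this lay mostly with the wild-type single embryos. In 7 of the 10 genes (Kmt2a, Kmt2b, Kmt2c, Kmt2d, Setd1b, Nsd1 and Ash1l) every wild-type single embryo lay above all 4 pools, knockout and control, which held for 21.1% of all genes. Wdr5 was the reverse, with every wild-type single embryo below all 4 pools, as for 15.5% of all genes. None of the 10 had every knockout single embryo above all pools (10.9% of all genes did) or below them (7.94%). Kmt2c averaged 189 ± 64.1 CPM in knockout single embryos and 425 ± 49.9 CPM in wild-type single embryos (SD, n = 3 each), beside 179.9 ± 36.8 CPM in knockout pools and 166 ± 12.7 CPM in control pools (SD, n = 2 each). In RNA from whole embryos, fewer cells of a type and less RNA per cell cannot be told apart.

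**Figure D3:**
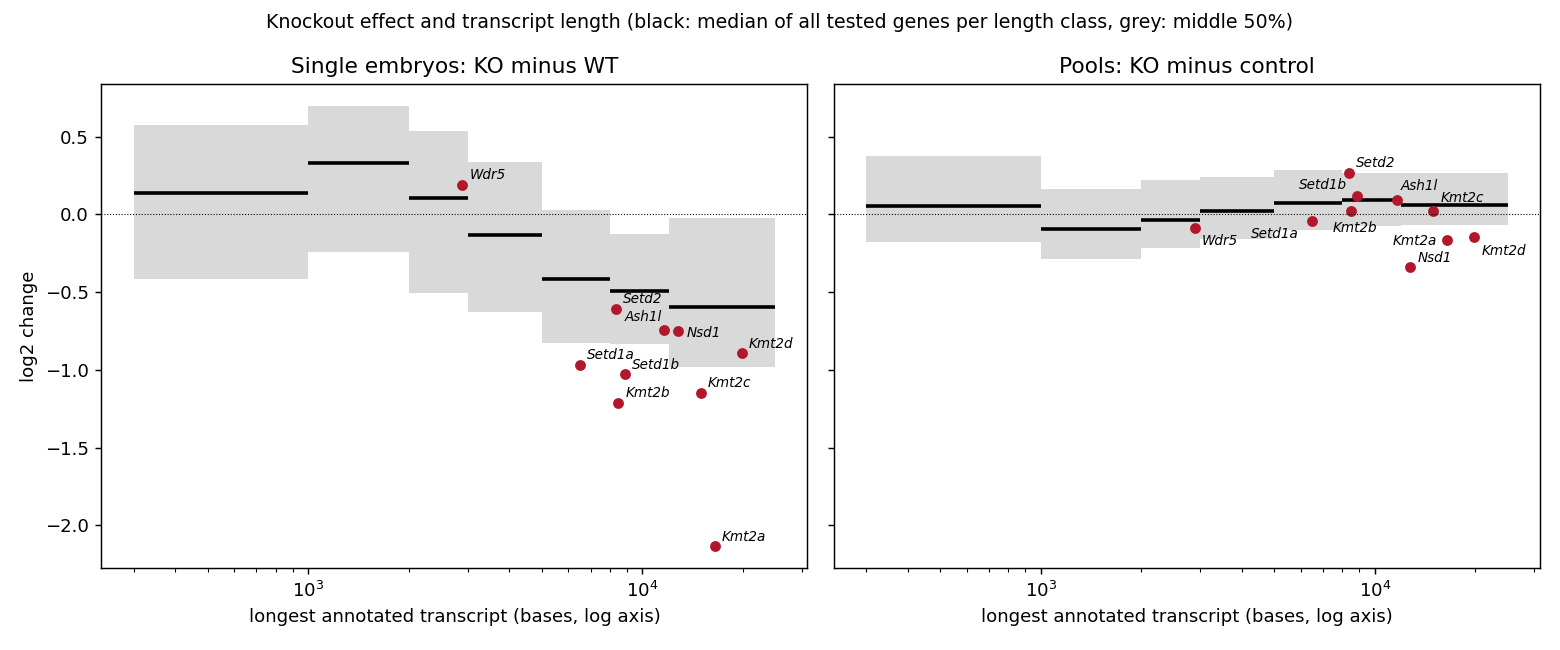
Log2 change of knockout minus wild type in single embryos (left) and knockout minus control in pools (right) against the longest annotated transcript in bases (log axis), where red points are the 10 genes, black lines the median of all tested genes in a length class and grey areas the middle 50% of them. In single embryos the class median was below 0 from 3000 bases on and -0.60 at 12000 bases and above, while in pools all class medians lay between -0.10 and 0.09.

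Long transcripts as a whole were lower in knockout single embryos, and the 9 methyltransferase genes are long. The median log2 change in single embryos was -0.44 over the 2430 tested genes with a transcript of at least 5000 bases and 0.08 over the 10438 shorter ones, and in pools it was 0.07 and -0.02. Against the median of genes of like length, the log2 change differed by -1.54 in Kmt2a, -0.72 in Kmt2b, -0.55 each in Kmt2c and Setd1a and -0.53 in Setd1b. A still lower change was found in 1.5% of the length class of Kmt2a, 7.92% of that of Kmt2b and 18% of that of Kmt2c. For Setd1a it was 19.1% and for Setd1b 15.2%. Kmt2d (-0.3), Ash1l (-0.25), Nsd1 (-0.16) and Setd2 (-0.11) lay closer to the median of their classes, and Wdr5 lay 0.09 above that of genes with 2000 to 3000 bases. With each library corrected for transcript length and GC content the log2 changes were -1.52 for Kmt2a, -0.61 for Kmt2b, -0.53 for Kmt2c, -0.39 each for Setd1a and Setd1b, -0.19 for Setd2, -0.18 for Ash1l, -0.12 for Nsd1, -0.02 for Kmt2d and 0.24 for Wdr5. No gene of the 10 passed the test in that fit, which called 3.51% of all genes. What part the library preparation had in this relation was not tested.

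Levels are set side by side here per kilobase of the longest annotated transcript, whether or not that one is used in morulae. The share of counts from transcripts of at least 5000 bases varied from 10.7% to 16.95% between libraries. The order of long against short genes is therefore a description only. On this scale Wdr5 was the highest of the 10 in each group, with 90.7 ± 23.7 CPM per kilobase in knockout and 82.9 ± 6.6 in wild-type single embryos (SD, n = 3 each) and 95.8 ± 4.46 in knockout and 96.2 ± 3.86 in control pools (SD, n = 2 each). Setd2 and Kmt2c followed, at 15.8 ± 2.28 and 12.6 ± 4.29 CPM per kilobase in knockout single embryos and 24.8 ± 1.78 and 28.4 ± 3.33 in wild-type single embryos, with ranges that overlapped in both groups. In pools Setd2 stood above Kmt2c without overlap, at 23.4 ± 0.934 against 12 ± 2.46 CPM per kilobase in knockout pools and 18.2 ± 1.84 against 11.1 ± 0.85 in control pools. Nsd1 ranked next in every group, at 6.65 to 13.9 CPM per kilobase. Setd1a, Ash1l, Kmt2b and Setd1b lay below it in an order that varied, most neighbours among them overlapping in single embryos. Kmt2d and Kmt2a had the lowest means, at 0.978 ± 0.33 and 0.612 ± 0.556 in knockout and 1.85 ± 0.439 and 2.67 ± 1.44 CPM per kilobase in wild-type single embryos. The range of Setd1b overlapped that of Kmt2d in knockout and that of Kmt2a in wild-type single embryos.

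**Figure D4:**
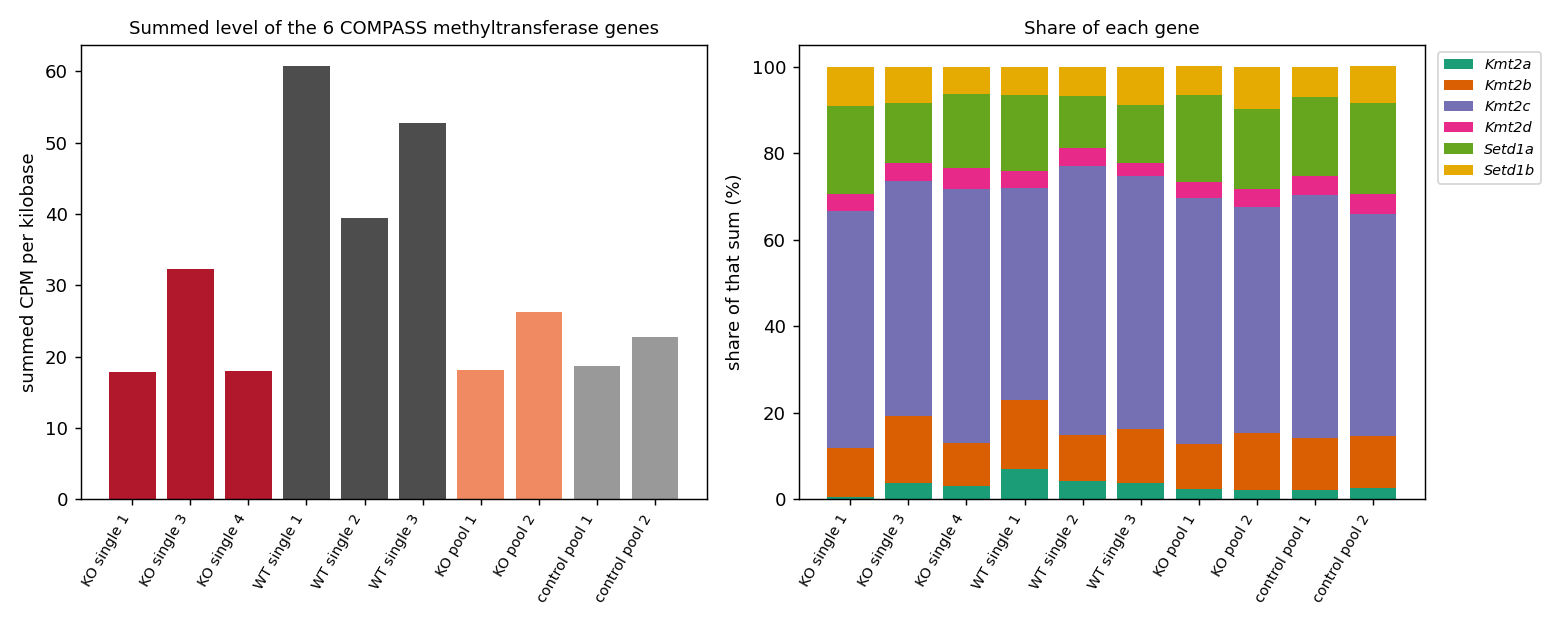
Summed level of the 6 COMPASS methyltransferase genes in CPM per kilobase of the longest transcript in each library (left, bars from 0), and the share of each gene in that sum in percent (right). The sum lay between 17.8 and 32.3 in knockout and between 39.5 and 60.7 in wild-type single embryos, while Kmt2c held 49% to 62.2% of it in every library.

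The share of Kmt2c among the COMPASS methyltransferase transcripts varied less than their sum. The 6 genes summed to 17.8, 32.3 and 18 CPM per kilobase in knockout single embryos 1, 3 and 4, against 60.7, 39.5 and 52.8 in wild-type single embryos 1 to 3. The sums were 18.1 and 26.3 in knockout pools, against 18.7 and 22.8 in control pools. The single-embryo groups did not overlap and the pools did. Kmt2c held 54.7%, 54.3% and 58.7% of the sum in knockout single embryos, against 49%, 62.2% and 58.4% in wild-type single embryos, and 51.4% to 56.7% in the pools. Kmt2a varied most for its size, from 0.549% in knockout single embryo 1 to 7.13% in wild-type single embryo 1. The level of Wdr5 per kilobase was 6.62, 2.31 and 4.41 times the sum of the 6 in knockout single embryos 1, 3 and 4, against 1.47, 1.92 and 1.59 times in wild-type single embryos 1 to 3. In the pools it was 5.45 and 3.52 times in knockout and 5.29 and 4.11 times in control pools. Every knockout single embryo was thus above every wild-type one in this ratio, and the pools of the 2 groups overlapped. Wdr5 has a transcript of 2890 bases, and the 6 genes have ones of 6487 to 19823 bases. The share of counts from transcripts of at least 5000 bases also separated the single embryos, at 10.9% to 13.8% in knockout and 14.9% to 16.95% in wild type. Whether the sum or the ratio differed beyond that share was not tested.

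Across the 10 libraries the 8 methyltransferase genes other than Setd2 varied together, with Pearson r of log2(CPM + 1) of 0.76 to 0.96 over their 28 pairs. Setd2 correlated with these 8 at 0.39 to 0.68, and Wdr5 with the 9 methyltransferase genes at -0.69 to 0.07. These are descriptions over 10 libraries that share group, set and depth. Among 7658 genes with a mean of at least 10 CPM, the genes most like Kmt2c over the 10 libraries included Prkcsh (r = 0.989) and Lrp10 (0.988), those most like Nsd1 were Tmem245 (0.973), Gpatch2 (0.966) and Lpcat1 (0.965), and those most like Wdr5 were Zfp207 (0.948), Polr1d (0.93) and Gskip (0.925).

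The partners of these enzymes and the enzymes and readers that act on the same marks were taken from 10 lists of 47 genes in all. In single embryos 46 of them were tested, and 2 fell (Bod1l and Paxip1), none rose and 44 did not pass, beside the 3.21% of all genes called lower, with a median log2 change of -0.06 over the lists and -0.04 over all genes. DESeq2 called 6 of them in single embryos (Ash2l and Morf4l1 higher, Bod1l, Paxip1, Wdr82 and Whsc1l1 lower), beside 14.1% of all genes in both directions, and limma-voom called Bod1l and Paxip1, beside 5.47% of all genes. At an unadjusted p under 0.05 by edgeR there were 10 of the 46, beside 22.6% of all genes. In pools none of the 47 passed the test of edgeR, DESeq2 or limma-voom, beside 0.0% of all genes by edgeR, and their median was 0.05 beside 0.01 over all genes. Psip1 (-0.39) and Setd7 (1.56) were the 2 at an unadjusted p under 0.05 there, beside 6.6% of all genes.

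Bod1l, a partner of SETD1A that protects replication forks, had 122, 126 and 118 CPM in knockout single embryos 1, 3 and 4, against 251, 213 and 232 CPM in wild-type single embryos 1 to 3. The knockout embryos lay within 8 CPM of each other and far below the wild-type embryos, and the gene fell by 0.88 on the log2 scale (SE 0.19, adjusted p = 0.0287 by edgeR). Paxip1, which encodes the PTIP subunit of KMT2C and KMT2D complexes, had 9.27, 19.3 and 12.5 CPM in knockout single embryos 1, 3 and 4, against 41.7, 38.4 and 40 CPM in wild-type single embryos 1 to 3. Again the groups were apart, and the gene fell by 1.52 on the log2 scale (SE 0.32, adjusted p = 0.0277 by edgeR). In pools Bod1l had 77.3 and 113 CPM in knockout and 77.6 and 94.1 CPM in control pools, and Paxip1 had 22.5 and 26.1 CPM in knockout and 21.1 and 21.9 CPM in control pools, with no call. Corrected for length and GC content, Paxip1 kept its call in single embryos (adjusted p = 0.0431 by edgeR) and Bod1l lost it (log2 change -0.35, adjusted p = 0.371). With TMM scaling over genes with transcripts of at least 5000 bases both lost it (log2 change -1.12 and adjusted p = 0.0592 for Paxip1, adjusted p = 0.272 for Bod1l). Both calls were lost when knockout embryo 1 or 4, or wild-type embryo 1 or 3, was left out (adjusted p by edgeR 0.0797 to 0.118 for Bod1l and 0.103 to 0.111 for Paxip1).

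**Figure D5:**
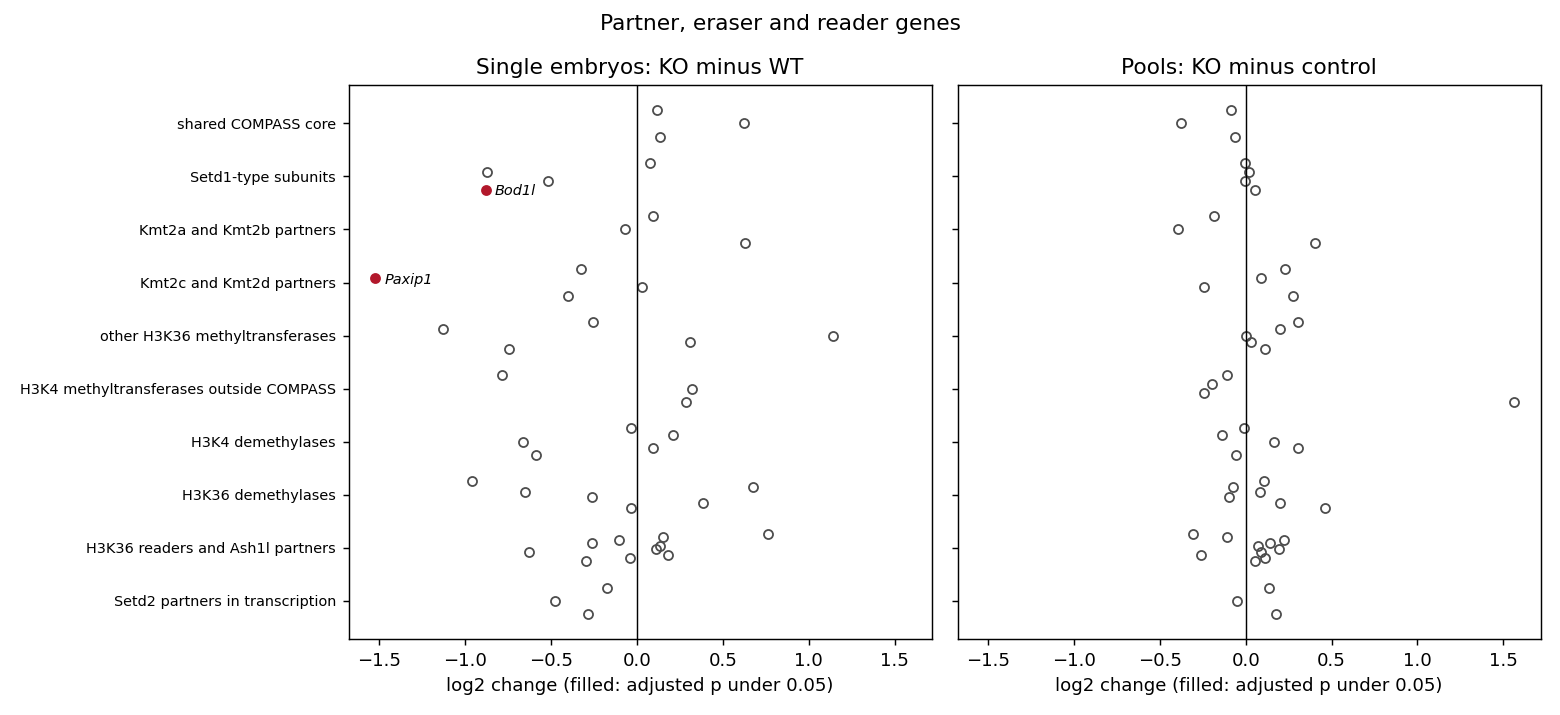
Log2 change of the 47 partner, eraser and reader genes (horizontal axis) by list (rows) in single embryos (left, knockout minus wild type, 46 tested) and in pools (right, knockout minus control), with a filled symbol where the adjusted p is under 0.05. The 2 filled symbols are Bod1l at -0.88 and Paxip1 at -1.52 in single embryos, and Setd7, a gene of 16 to 64 counts a pool, is the point at 1.56 in pools.

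The remaining subunits did not pass edgeR's test in single embryos. Of the shared COMPASS core, Rbbp5 had a log2 change of 0.12 in single embryos and -0.09 in pools, and Dpy30, a small dimeric subunit, had 0.14 (-0.26 with the length and GC correction) and -0.06. Ash2l, which activates the catalytic subunits, had 432, 357 and 563 CPM in knockout single embryos 1, 3 and 4, against 251, 389 and 275 CPM in wild-type single embryos 1 to 3. The groups overlapped at wild-type embryo 2, and the log2 change was 0.62 (SE 0.24, adjusted p = 0.152 by edgeR). In pools Ash2l had 385 and 319.9 CPM in knockout and 459 and 404 CPM in control pools, with a log2 change of -0.38 (SE 0.19, adjusted p = 0.793 by edgeR). Of the 3 Setd1-type subunits besides Bod1l, Wdr82 was closest to a call (log2 change -0.87, adjusted p = 0.121 by edgeR). Of the Kmt2a and Kmt2b partners, Hcfc2 had a log2 change of 0.63 and Psip1, which encodes the chromatin tether LEDGF, one of -0.07, and of the other Kmt2c and Kmt2d partners Ncoa6 had one of -0.4.

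The other enzymes and readers of the same marks gave no call by edgeR's test in single embryos, while DESeq2 called Whsc1l1 (adjusted p = 0.0495) and Morf4l1 (0.0459), and edgeR with no filter on low counts called Morf4l1 (0.039). Whsc1l1, now Nsd3, the relative of Nsd1, had a log2 change of -1.13 (SE 0.4, adjusted p = 0.126 by edgeR), and Setd5 had one of -0.74 (adjusted p = 0.134). Among the erasers, which remove methyl groups, those with the smallest p of their lists were Kdm5a (-0.66) and Kdm5c (-0.59) for H3K4. For H3K36 they were Kdm2a (-0.96) and Kdm4a (-0.65), and the adjusted p by edgeR was 0.165 or more for Kdm5a and Kdm2a. The lists were mixed in direction, with 3 of the 5 H3K4 erasers and 4 of the 6 H3K36 erasers below 0. Their medians were -0.04 and -0.15, beside -0.04 over all genes. Morf4l1, which encodes MRG15, a reader of H3K36 methylation and a subunit of the ASH1L complex, had 129, 125 and 147 CPM in knockout single embryos 1, 3 and 4, against 46.3, 97.3 and 100.6 CPM in wild-type single embryos 1 to 3. All knockout embryos lay above all wild-type embryos, as for 12.6% of all genes, and the log2 change of 0.76 (SE 0.3) did not pass the test (adjusted p = 0.156 by edgeR). Brpf1 (-0.63) and the SETD2 partners Supt6 (-0.48) and Polr2a (-0.28) did not pass it either.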

How the data were processed

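The deposited table holds raw read counts per gene, whole numbers without normalization, and the submitters' processing notes name STAR 2.7.6a, RSEM 1.3.1 and fastp 0.21.0, with mm10 as the build. Libraries were made with SMART-Seq v4 and Nextera XT and read as single-end reads on a NextSeq 500, per the labels' protocols. The annotation, the use of strand and the treatment of reads with several matches are not stated there. Reads carried no molecular identifiers. In the table, 27 rows have a date in place of a name and hold 0.13% to 0.15% of each library's counts.

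EdgeR 4.0.16 in R 4.3.3 was used for the tests (filterByExpr, TMM, quasi-likelihood F test, two-sided), with Benjamini-Hochberg adjustment over all genes tested and a threshold of 5%. Single embryos and pools were fitted apart, and the difference and the average of the knockout effects were fitted over all 10 libraries. The fits were tested on simulated data, where a minimum of recovered changes was required of each comparison except the difference of the knockout effects. CPM come from library totals. Coordinates and promoters are RefSeq's for GRCm38.p6, and transcript lengths are the longest in GENCODE M21, known for 93% (single embryos) and 90.7% (pools) of the genes tested. The labels describe single embryos as separate, but do not say whether the pools were of separate litters, so p-values there cover a spread between pools that may be technical.

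Alternatives were 3 other scalings, DESeq2 1.42.0, limma-voom (limma 3.58.1), 2 other filters on low counts, robust fitting, 1 fit over all libraries, the replicate number as a block, an offset for transcript length and GC content, leaving out each library and, chosen after seeing the data, TMM over genes with transcripts of at least 5000 bases. The members, the lists and the rule for named genes (the 10 members, Jarid2, list genes past 5% or else the 2 with the smallest p, and the 3 genes most like a member) were chosen with earlier results of these data known. One gene that this rule names is not reported here.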

Additional observations from a re-analysis of the deposited data

How the results depend on the processing

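In single embryos 605 genes were called (161 higher, 444 lower in knockout), against 1945 by DESeq2, 1715 with no filter on low counts, 1243 with at least 10 CPM on average, 1667 with all 10 libraries in 1 fit, 1 with TMM over long transcripts and 1 to 1316 with a library left out. Upper quartile scaling split the calls into 301 higher and 423 lower. Of the 10 members, 1 was called, against 5 by DESeq2, 2 by limma-voom, 5 with no filter, 3 with at least 10 CPM, 3 with all libraries in 1 fit, 0 with the length and GC offset, 0 with TMM over long transcripts and 0 to 3 with a library left out. For Kmt2c 11 of 18 alternatives kept the call and 7 lost it, with adjusted p of 4.62e-05 to 0.126, among them TMM over long transcripts (log2 change -0.74), under which the median of all genes lay at 0.39, against -0.04 with the usual scaling.

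The labels do not say what a shared replicate number stands for, and same-numbered single embryos did not deviate together (r = -0.053 and -0.174). In pools r was 0.567 for same-numbered and -0.567 for other-numbered libraries. With 2 libraries a group these are 1 number with its sign turned, so they cannot show a pairing. With the replicate number as a block, 187 genes were called in single embryos, 39 in pools, 0 for the difference and 0 for the average. In single embryos Kmt2c (adjusted p = 0.11), Bod1l (0.258) and Paxip1 (0.139) lost their calls, and Kmt2a gained one (log2 change -2.98, adjusted p = 0.0459 by edgeR).

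In pools no gene was called, against 70 by DESeq2, 1 by limma-voom, 170 with no filter and 25 to 379 with a library left out. The difference between the sets had 1 call, against 436 by DESeq2, 548 with no filter, 0 with TMM over long transcripts and 0 to 2 with a library left out, and 1 member by DESeq2 and 2 with no filter. The average effect had 40 calls, against 1 with upper quartile scaling, 484 by DESeq2, 141 by limma-voom, 579 with no filter (2 members), 103 with the length and GC offset, 141 with at least 10 CPM, 1 with TMM over long transcripts and 0 to 130 with a library left out.

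Signs turned in pools for Kmt2b (-0.002 with DESeq2 size factors and DESeq2, -0.03 by limma-voom, -0.014 with the replicate block, -0.252 with the length and GC offset, -0.061 with TMM over long transcripts), Kmt2c (-0.001, -0.001, -0.115 with the offset, -0.053 with TMM over long transcripts), Setd1a (0.004 with upper quartile scaling, 0.046 with library totals, 0.015 with at least 10 CPM), Setd1b (-0.172) and Ash1l (-0.018), both with the offset. The offset also turned the difference for Kmt2d (0.36) and Nsd1 (0.293) and, in single embryos, Dpy30 (-0.264) and Polr2a (0.195). TMM over long transcripts turned the difference for Nsd1 (0.116), the average for Setd2 (0.016) and Polr2a (0.124) and Psip1 (0.364) in single embryos. With a pool left out, log2 changes ran from -0.376 to 0.081 in Kmt2a, -0.388 to 0.341 in Kmt2b, -0.129 to 0.156 in Kmt2c, -0.423 to 0.085 in Kmt2d, -0.244 to 0.178 in Setd1a, -0.451 to 0.516 in Setd1b, -0.01 to 0.179 in Ash1l and -0.211 to 0.019 in Wdr5. With a single embryo left out they ran from -0.1 to 0.36 in Wdr5 and -0.377 to 0.127 in Psip1, and the average for Wdr5 from -0.074 to 0.146. The cause of these turns was not tested. Kmt2a was not tested in pools with at least 10 CPM, since it fell under that filter.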
